A study of Homo sapiens with 6 samples.

Results

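The 6 genes described here are RPS27L, RPL22L1, RPL7L1, RPL26L1, RPL36AL and RPL39L, each a second gene ("-like" paralog) for a cytosolic ribosomal protein or for a protein related to one. They were taken by gene name from a table of 31768 genes and 153848 transcripts, in which they hold 31 transcripts, and 28 of these, from 5 of the genes, passed the filters on low counts and on transcripts per gene. The cells were HMC3, an immortalized human microglial line, sequenced as 3 control cultures (0 Gy) and 3 cultures given 15 Gy of 6 MV X-rays, all harvested at 24 h. The cultures were independent, both groups grew in the same serum-containing medium, and no other agent or genotype was applied. The reads are long Nanopore reads of amplified cDNA from polyadenylated RNA, and the unit is a whole-number count per transcript and library.

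A ribosome needs 1 copy of most of its proteins, and in human cells nearly all of them come from a single expressed gene whose mRNA starts with a run of pyrimidines, the 5′ terminal oligopyrimidine tract through which its translation is controlled. A few of these genes have a paralog that encodes a very similar protein. RPS27L is the paralog of RPS27 in the small subunit and is known as a direct transcriptional target of p53, the factor that DNA damage activates. RPL22L1, RPL26L1, RPL36AL and RPL39L stand beside RPL22, RPL26, RPL36A and RPL39 in the large subunit, and RPL39L is best known from the testis. RPL7L1, more distant from RPL7, has been linked to ribosome assembly. RPL22 and RPL26 have themselves been tied to the control of p53.

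The coding sequences of each pair are shown first, because the distance between paralog and partner bears on how well reads of the 2 genes can be told apart. In GENCODE release 29 on GRCh38, the RPS27L and RPS27 coding sequences were both 255 bases long and differed at 56 of them (78.0% identity). Of these differences 48 lay at the third base of a codon, 5 at the first and 3 at the second. The RPL39L and RPL39 coding sequences were both 156 bases long and differed at only 8 bases (94.9% identity). The sequences below run 5′ to 3′, and capitals mark the bases at which the members of a pair differ.
RPS27L, chr15:63154032-63157405, minus strand: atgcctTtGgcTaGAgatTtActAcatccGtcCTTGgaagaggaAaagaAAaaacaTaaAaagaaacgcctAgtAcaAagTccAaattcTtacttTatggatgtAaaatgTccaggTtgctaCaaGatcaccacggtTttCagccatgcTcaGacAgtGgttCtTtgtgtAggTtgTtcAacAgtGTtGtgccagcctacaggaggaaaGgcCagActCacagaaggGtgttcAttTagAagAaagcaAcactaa
RPS27, chr1:153990797-153992093, plus strand: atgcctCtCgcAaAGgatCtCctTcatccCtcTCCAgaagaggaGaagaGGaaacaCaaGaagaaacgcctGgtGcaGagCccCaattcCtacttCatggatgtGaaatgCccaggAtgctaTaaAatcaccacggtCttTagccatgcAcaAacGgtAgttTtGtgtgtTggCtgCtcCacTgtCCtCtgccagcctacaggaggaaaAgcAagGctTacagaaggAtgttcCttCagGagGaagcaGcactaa
RPL39L, chr3:187121145-187121300, minus strand: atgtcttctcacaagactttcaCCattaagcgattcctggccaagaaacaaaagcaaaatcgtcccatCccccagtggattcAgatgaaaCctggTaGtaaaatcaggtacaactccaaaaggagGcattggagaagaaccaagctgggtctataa
RPL39, chrX:119786684-119791576, minus strand: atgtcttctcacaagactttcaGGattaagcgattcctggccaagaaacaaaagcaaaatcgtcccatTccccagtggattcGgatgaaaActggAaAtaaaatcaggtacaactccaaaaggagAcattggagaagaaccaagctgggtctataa

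The capitals are spread along the whole of RPS27L, where the longest stretch shared with RPS27 was 20 bases. RPL39L shared a stretch of 44 bases with RPL39, and its coding sequence is not interrupted by an intron. For RPL36AL and RPL36A the identity was 90.0% over 321 bases, with a shared stretch of 63 bases. For RPL26L1 and RPL26 it was 84.2% over 438 bases, and for RPL22L1 and RPL22 it was 68.6% over the 369 bases aligned. RPL7L1 and RPL7 were furthest apart, at 57.0% of the 735 bases aligned without a gap. Nanopore reads carry base errors, and the sources used here do not say how reads that fit both genes of a pair, or one of their many processed pseudogenes, were shared out. The pairs with close coding sequences may therefore be the less certain ones. Sequences outside the coding regions, which the reads also cover, were not compared.

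The starts of the genes are shown because ribosomal protein mRNAs are marked by their first bases. RefSeq promoter windows on GRCh38.p14 were searched on the sense strand, within 5 bases of the annotated start, for a C followed by at least 4 further C or T. The windows below hold 10 bases before the start and 20 from it, with the run in capitals.
RPL22L1, chr3:170870176-170870205, minus strand: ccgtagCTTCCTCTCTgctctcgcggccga
RPL22, chr1:6199576-6199605, minus strand: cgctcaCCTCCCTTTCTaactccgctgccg
RPL36AL, chr14:49620607-49620636, minus strand: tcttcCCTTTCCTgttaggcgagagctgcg
RPL36A, chrX:101391001-101391030, plus strand: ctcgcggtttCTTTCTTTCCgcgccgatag
RPS27L, chr15:63157458-63157487, minus strand: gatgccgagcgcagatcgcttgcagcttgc
RPS27, chr1:153990752-153990781, plus strand: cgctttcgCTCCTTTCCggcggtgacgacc
RPL26L1, first start, chr5:172958719-172958748, plus strand: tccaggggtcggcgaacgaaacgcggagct
RPL7L1, chr6:42879606-42879635, plus strand: gtgcggcgccgtagctaggagcggacgcca

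RPL22L1 had such a run, of 10 bases. In RPL36AL the 8 capitals begin at the limit of the search and are the end of a longer stretch of pyrimidines. RPS27L, RPL7L1 and both listed starts of RPL26L1 had none, while the partners RPS27, RPL22, RPL26, RPL36A and RPL39 had runs of 9, 11, 12, 10 and 22 bases. RPL39L and the partner RPL7 were not matched. A run was present in 74.4% of 78 promoters of cytosolic ribosomal proteins and in 21.1% of all 35116 promoters. The 10-base consensus unit of p53 response elements, which reads the same on both strands, occurred 1 time in the 300-base windows of RPS27L and of RPS27 and in none of the other paralog windows. It occurred in 15.4% of the promoters of cytosolic ribosomal proteins and in 6.63% of all promoters, and a match is a description of letters only.

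RPS27L, the p53 target, was not detectably different between irradiated and control cells. Its gene lies on chromosome 15 from 63125872 to 63158021 on the minus strand. The control libraries held 867.7, 991.6 and 813.6 CPM (counts scaled to an equal library size with TMM factors), and the irradiated libraries held 825, 1030 and 929.2 CPM. The groups overlapped, and the highest and the second highest library came from different groups. The log2 fold change was 0.06 with a standard error of 0.125, and its 95% interval (normal approximation) ran from −0.187 to 0.305. By edgeR's quasi-likelihood test the adjusted p was 0.768 (Benjamini-Hochberg over 11118 genes). In bulk RNA such as this, fewer cells of a kind and less RNA per cell cannot be told apart.

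RPL22L1, on chromosome 3 from 170864875 to 170870483, fell the most of the 6. It was at 911.9, 1147 and 877 CPM in control cultures and at 476.9, 634.4 and 535.8 CPM in irradiated cultures. Every irradiated culture was below every control culture. The fall was 1.78-fold (log2 fold change −0.83 ± 0.139 standard error, edgeR adjusted p = 0.000932).

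RPL26L1, on chromosome 5 from 172958729 to 172969771, fell 1.51-fold. Its levels were 245.3, 311.9 and 224.7 CPM in control cultures and 158.1, 192.6 and 168.1 CPM in irradiated cultures, with no overlap (log2 fold change −0.59 ± 0.136, edgeR adjusted p = 0.0055). An antisense gene, RPL26L1-AS1, overlaps this region. It held between 0 and 12 counts per library, against 978 to 2039 for RPL26L1, and how far antisense reads entered the counts of RPL26L1 was not tested.

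RPL36AL, on chromosome 14 from 49618519 to 49620685, has 1 transcript in the table and therefore fails the study's rule of at least 2 transcripts per gene. With that rule dropped (12856 genes tested) it was at 549.1, 581.3 and 487.3 CPM in control cultures and at 337.6, 404.8 and 372.6 CPM in irradiated cultures. The groups did not overlap, and it fell 1.45-fold (log2 fold change −0.54 ± 0.122, edgeR adjusted p = 0.00699). In that fit 13.9% of genes were called lower.

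RPL7L1, on chromosome 6 from 42879618 to 42889925, was at 86.55, 84.75 and 85.52 CPM in control cultures and at 75.33, 79.11 and 75.16 CPM in irradiated cultures. The groups did not overlap, but the difference was small and did not pass the test (log2 fold change −0.16 ± 0.123, edgeR adjusted p = 0.352). RPL39L, on chromosome 3 from 187120948 to 187180908, was the least counted of the 6, with 116 to 236 counts per library. It was at 29.1, 30.29 and 28.05 CPM in control cultures and at 31.58, 34.55 and 26.2 CPM in irradiated cultures. The irradiated cultures lay on both sides of the controls (log2 fold change 0.08 ± 0.173, edgeR adjusted p = 0.781).

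**Figure D1:**
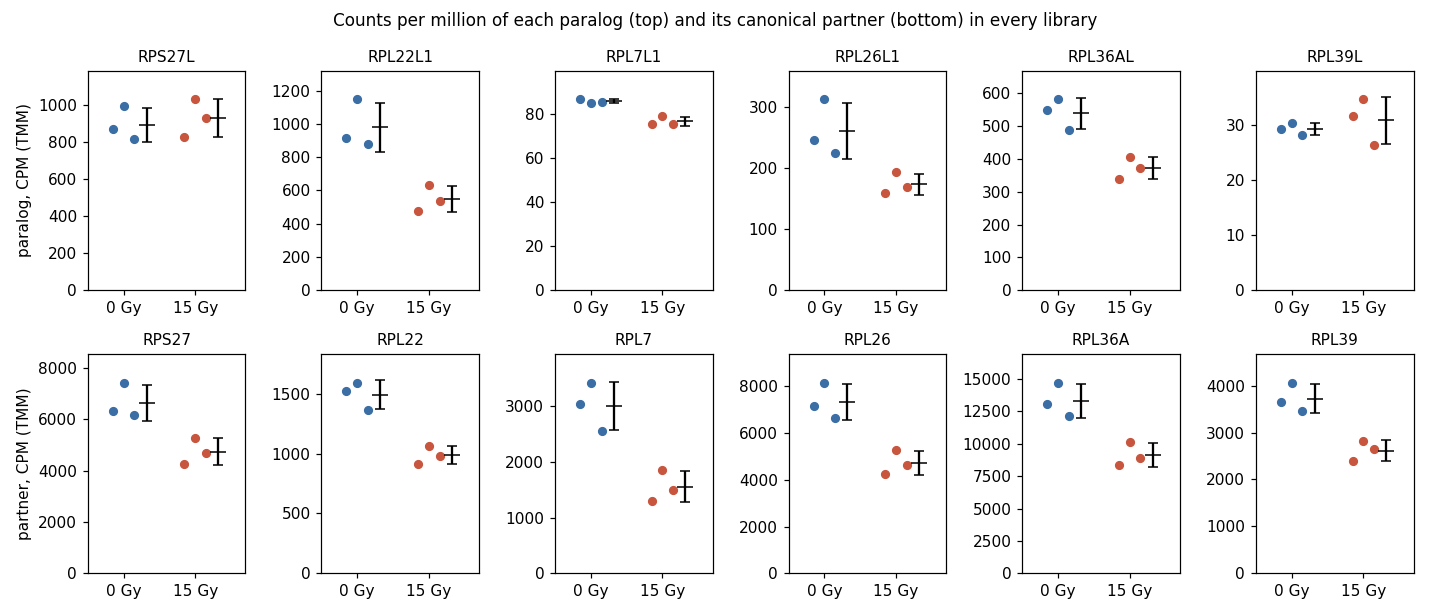
CPM (TMM-scaled, linear axes from 0) of the 6 paralogs in the upper row and their canonical partners in the lower row. Points are the 3 libraries of each group and bars give mean ± SD. The irradiated points of RPL22L1, RPL26L1, RPL36AL and every partner sit below the controls, those of RPS27L overlap them, those of RPL39L lie on both sides of them, and those of RPL7L1 sit slightly below (76.53 against 85.6 CPM on average).

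Of the 5 paralogs that met every filter, 0 were called higher at an adjusted p under 0.05 (edgeR) and 2 lower, RPL22L1 and RPL26L1. With library totals in place of TMM factors 2 were higher, RPS27L and RPL39L, and 1 lower, RPL22L1. DESeq2 called 0 higher, and none of the 3 not called lower had an unadjusted edgeR p under 0.05. Over all tested genes 11.6% were called higher and 14.1% lower, 1292 and 1567 genes. Without control culture 2, irradiated culture 1 or irradiated culture 3 these were 733, 694 and 716 higher and 1010, 977 and 990 lower. None of the 5 passed the study's further limit of an absolute log2 fold change over 1, which 5.7% of all genes passed. The 5 had a median of −0.16 on the log2 scale, and all 11118 tested genes one of 0.08.

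All 6 canonical partners fell at an adjusted p under 0.05 (edgeR), with log2 fold changes from −0.95 in RPL7 to −0.485 in RPS27 and a median of −0.57. Of the 79 cytosolic ribosomal protein genes, which include these 6, 78 fell and 0 rose, with a median of −0.69. With library totals in place of TMM factors 57 of the 79 fell, still with 0 higher, and 2 of the 6 partners, RPL7 and RPL26. With a correction for transcript length 67 of the 79 fell, again with 0 higher, and 3 of the 6 partners, RPL22, RPL7 and RPL26, with a partner median of −0.21, while RPS27 (−0.0854, adjusted p = 0.419), RPL39 (−0.119, adjusted p = 0.249) and RPL36A (−0.176, adjusted p = 0.0747) were not called (edgeR). RPS27A (−1.18), RPL35A (−0.98) and RPL3 (2.0-fold lower) had the smallest adjusted p-values among them. The 79 genes together took 408900 to 510800 CPM in control cultures and 252400 to 315200 CPM in irradiated cultures. These sums carry the TMM factors, which were lower in control than in irradiated libraries, so they are not shares of a library's counts. With library totals the median of the 79 was −0.239. The related read-through transcripts RPL17-C18orf32 (−1.34), RPS10-NUDT3 (−0.93) and RPL36A-HNRNPH2 (−0.74) fell as well, and RPL3L and RPL10L did not meet the filters. Leaving out irradiated culture 1 or 3 ended the call of RPS27 (adjusted p = 0.0728 and 0.0797, edgeR), and leaving out irradiated culture 3 did so for RPL36A (adjusted p = 0.0624, edgeR).

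**Figure D2:**
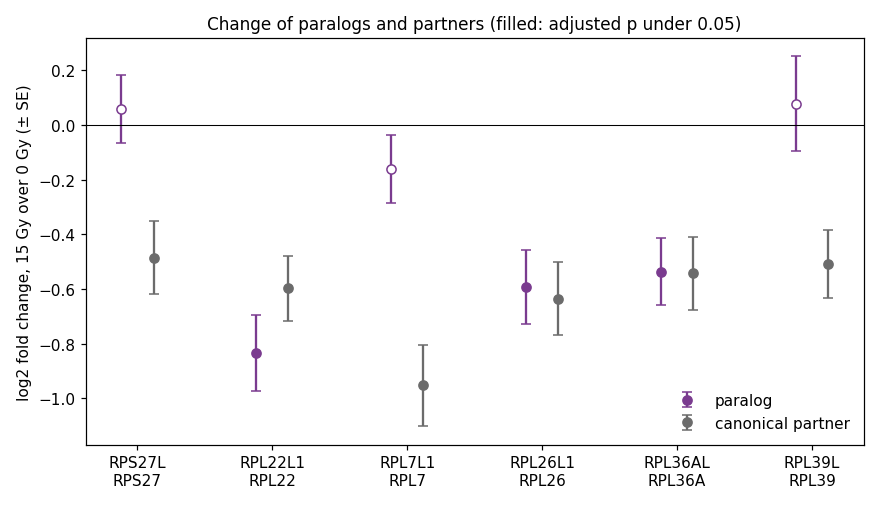
Log2 fold change of irradiated over control cells (edgeR, error bars are 1 standard error, n = 3 cultures per group) for each paralog beside its partner. Filled points passed an adjusted p under 0.05. All 6 partners are filled and below 0, and of the paralogs RPL22L1, RPL26L1 and RPL36AL are.

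Because the total of ribosomal protein counts differed between the groups, the ratio of 2 genes within a library was also taken. No scaling factor of a whole library changes it, though a correction by transcript length can. RPS27L had 13.76, 13.34 and 13.17 counts per 100 counts of RPS27 in control cultures and 19.41, 19.47 and 19.82 in irradiated cultures. The groups were far apart relative to their spread, with log2 ratios of −2.90 ± 0.0323 and −2.35 ± 0.0163 (SD, n = 3 each) and a difference of 0.54. The two-sided exact permutation test gave p = 0.1, the smallest value that 3 cultures against 3 allow, so no ratio of this design can pass 0.05.

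RPL39L had 0.7973, 0.7457 and 0.8134 counts per 100 counts of RPL39 in control cultures and 1.325, 1.227 and 0.9895 in irradiated cultures. The groups did not overlap, at a log2 difference of 0.58 (exact permutation p = 0.1). RPL7L1 had 2.855, 2.477 and 3.339 counts per 100 counts of RPL7 in control cultures and 5.763, 4.261 and 5.027 in irradiated cultures, again without overlap (log2 difference 0.795, exact permutation p = 0.1). In these 3 pairs the paralog's share of the pair was higher in every irradiated culture. The same held for much of the transcriptome set over these partners, since 45.2% of the other tested genes were higher over RPS27 in every irradiated culture, 48.5% over RPL39 and 73.1% over RPL7.

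RPL22L1 stood the other way. It had 59.86, 72.07 and 64.33 counts per 100 counts of RPL22 in control cultures and 52.01, 59.57 and 54.7 in irradiated cultures, so the highest irradiated culture lay just under the lowest control (log2 difference −0.24, exact permutation p = 0.1). Of the other tested genes 3.59% were lower over RPL22 in every irradiated culture. RPL26L1 held 3.421, 3.821 and 3.375 counts per 100 of RPL26 in control cultures and 3.726, 3.655 and 3.614 in irradiated cultures. RPL36AL held 4.309, 4.042 and 4.164 per 100 of RPL36A in control cultures and 4.194, 4.156 and 4.357 in irradiated cultures. Both of these overlapped (log2 differences 0.05 and 0.02, exact permutation p = 0.4 and 0.5 over the 6 pairs compared). Counts per 100 counts were not calibrated as molar ratios, and the length correction was not run on them. In the gene fits with that correction (edgeR), RPS27L was at −0.112 and RPS27 at −0.0854. RPL39L was at 0.437 and RPL39 at −0.119, RPL7L1 at −0.417 and RPL7 at −0.708. RPL22L1 was at −0.507 and RPL22 at −0.514, RPL26L1 at −0.222 and RPL26 at −0.252, RPL36AL at −0.228 and RPL36A at −0.176. How transcript length bears on the ratios was not tested further.

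RPS27L was set against each of the other 5 paralogs in the same way. Per 100 counts of RPL22L1 there were 95.16, 86.46 and 92.77 counts of RPS27L in control cultures and 173, 162.4 and 173.4 in irradiated cultures, with a wide gap between the groups (log2 difference 0.89, exact permutation p = 0.1). Per 100 counts of RPL26L1 there were 353.7, 317.9 and 362.2 in control cultures and 521.7, 534.9 and 552.9 in irradiated cultures (log2 difference 0.64). Per 100 counts of RPL36AL there were 154.1, 166.8 and 160.8 in control cultures and 234.9, 244.6 and 239.5 in irradiated cultures (log2 difference 0.58). Neither of the last 2 ratios overlapped between the groups, and both gave an exact permutation p = 0.1.

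Against RPL7L1 the groups overlapped (log2 ratios 3.37 ± 0.155 and 3.59 ± 0.128, difference 0.22, exact permutation p = 0.2, SD, n = 3 each). Against RPL39L they overlapped as well (4.93 ± 0.0915 and 4.92 ± 0.221, difference −0.01, exact permutation p = 1.0). RPS27L was thus higher in all irradiated cultures relative to 3 of the 5, those called lower with TMM factors. In the gene fits with the length correction RPS27L was at −0.112 and RPL22L1 at −0.507. RPL26L1 was at −0.222 and RPL36AL at −0.228 there, and neither of them was called (edgeR). Of 10841 tested genes counted in every library, 23.4% gave a ratio with RPS27L that was higher in every irradiated culture than in any control.

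**Figure D3:**
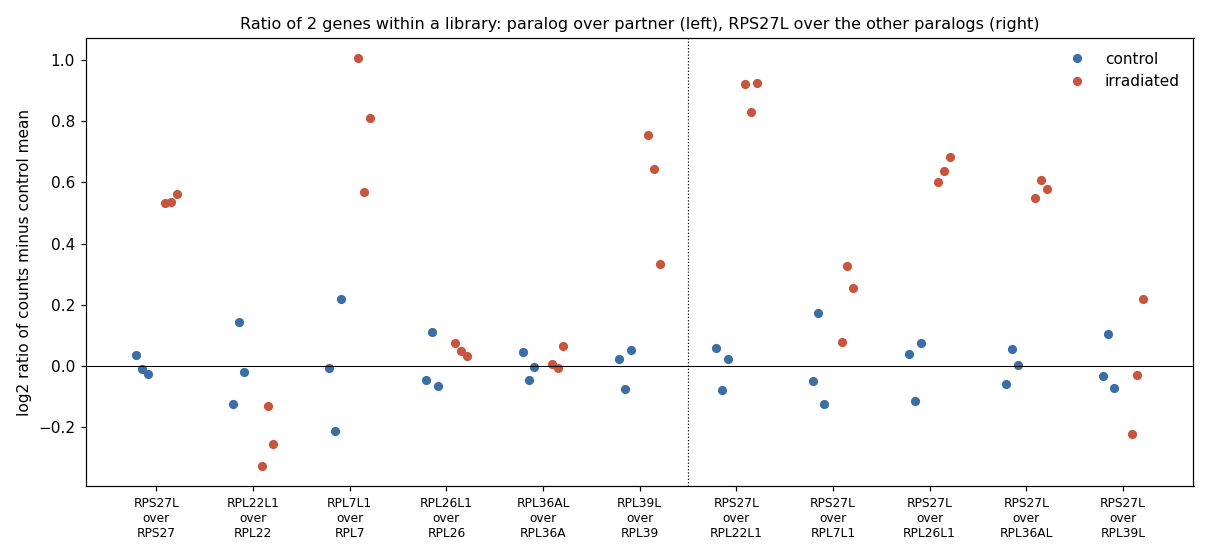
Log2 ratio of the counts of 2 genes in a library, minus the mean of the control libraries, for the 6 paralog-partner pairs (left of the dotted line) and for RPS27L over the other 5 paralogs (right). Points are libraries, 3 per group. The irradiated points of RPS27L over RPS27 lie close together at about 0.54, and those of RPL26L1 over RPL26 and RPL36AL over RPL36A lie among the controls.

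For comparison, 27 other p53 targets were listed, of which 21 met the filters. Of these 13 rose and 0 fell at an adjusted p under 0.05 (edgeR), with a median log2 fold change of 0.936. Over all tested genes 11.6% were called higher. With library totals in place of TMM factors 18 of the 21 rose and 0 fell, and with the length correction 12 rose and 1 fell. CDKN1A, the cell cycle inhibitor p21, rose by 1.77 on the log2 scale, FDXR, a mitochondrial ferredoxin reductase, by 2.38 and MDM2, the ubiquitin ligase of p53, by 1.64. The list summed to 527 to 575.7 CPM in control cultures and to 1226 to 1268 CPM in irradiated cultures. RPS27L, with 0.06 under TMM factors, was among neither the risen nor the fallen genes. With library totals it was called higher (0.51, adjusted p = 0.00142, edgeR), and with the length correction it was not called (−0.112, adjusted p = 0.533, edgeR).

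These differences depend on the scale. TMM factors were 0.793 to 0.928 in controls and 1.09 to 1.24 in irradiated libraries. Under library totals alone the median over all genes was 0.528 in place of 0.0803, and 3643 genes were called higher and 356 lower in place of 1292 and 1567. On that scale RPS27L was called higher (0.51, adjusted p = 0.00142, edgeR), as was RPL39L (0.53, adjusted p = 0.0338), while RPL26L1 (−0.13, adjusted p = 0.278) and RPL36AL (−0.07, adjusted p = 0.404) were no longer called. Relative to the median of all genes RPS27L was at −0.02 on both scales, RPL22L1 at −0.91 on both, RPL26L1 at −0.67 and −0.66, and RPL36AL at −0.62 and −0.61. After correction for a trend of the counts on transcript length, fitted in each library, RPL22L1 stayed called (−0.51, adjusted p = 0.0028), RPL26L1 did not (−0.22, adjusted p = 0.137), RPL36AL did not (−0.23, adjusted p = 0.0808), and RPL7L1 was called lower (−0.42, adjusted p = 0.0224). RPL39L was at 0.437 after it (adjusted p = 0.0716, edgeR), in place of 0.0774. Beyond these values the part of transcript length was not tested.

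**Figure D4:**
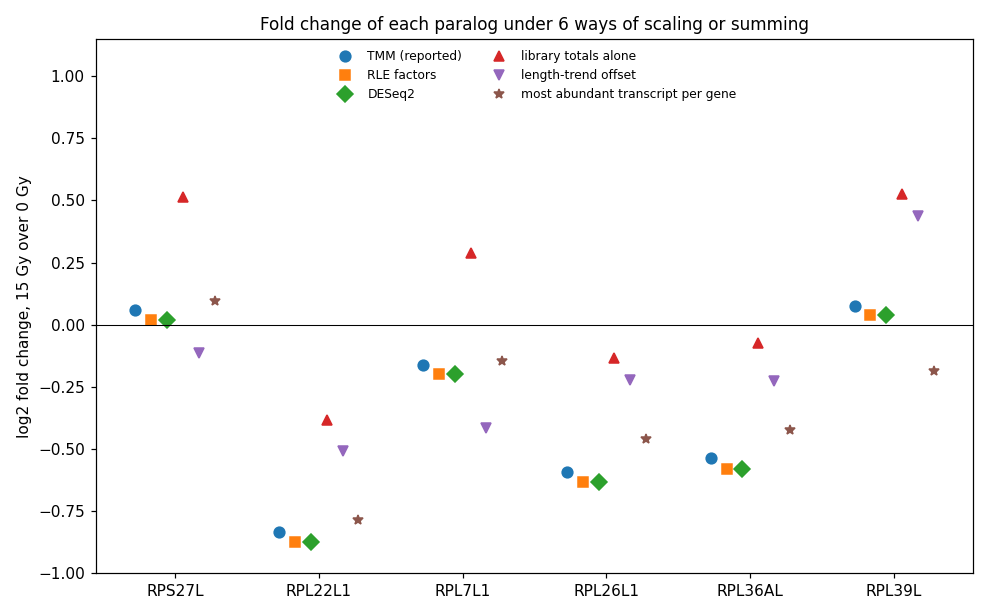
Log2 fold change of each paralog (vertical axis) under TMM factors, RLE factors, DESeq2, library totals, the transcript length offset and the most abundant transcript per gene. RPL22L1 is below 0 under all 6, from −0.875 to −0.381, as are RPL26L1 and RPL36AL, while RPS27L, RPL7L1 and RPL39L each have values on both sides of 0.

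Levels were compared between genes per length, using the count-weighted length of a gene's transcripts in GENCODE release 29. A long read can span a whole transcript, so counts need not grow with length, and the order depends on this division. Undivided, mean control levels were 978.6 CPM for RPL22L1, 891 for RPS27L, 539.2 for RPL36AL, 260.6 for RPL26L1, 85.6 for RPL7L1 and 29.15 for RPL39L. In control cultures RPL22L1 stood at 1060 ± 158 CPM per kilobase (SD, n = 3), RPL36AL at 723 ± 64.0, RPL26L1 at 369 ± 64.5, RPS27L at 281 ± 28.8, RPL39L at 39.9 ± 1.53 and RPL7L1 at 21.2 ± 0.223. RPL26L1 (318 to 441 CPM per kilobase) and RPS27L (256 to 313) were the closest neighbours in this order and came near to overlapping, and no other neighbours overlapped. In irradiated cultures RPL22L1 was at 592 ± 85.8 CPM per kilobase and RPL36AL at 498 ± 45.1, whose ranges overlapped, and RPS27L (293 ± 32.4) stood above RPL26L1 (245 ± 25.1), with overlapping ranges too. The place of RPS27L rests on 1 annotated transcript of 6434 bases. This transcript, ENST00000330964, and ENST00000295830 of RPL22L1, ENST00000296277 of RPL39L and ENST00000493763 of RPL7L1 carry another version number in the count table than in GENCODE release 29, so their lengths may differ, which also bears on the length correction. With the length of its shortest common transcript, 693 bases, it was at 1290 CPM per kilobase in control cultures, and RPL22L1 with its own shortest, 506 bases, at 1930. RPS27, at 12800 ± 1330 CPM per kilobase, and RPL39, at 6500 ± 547, stood far above their paralogs, whereas RPL22 was at 775 ± 60.8, below RPL22L1 on the count-weighted lengths. Undivided, RPL22 stood above RPL22L1 in control cultures, at 1493 against 978.6 CPM.

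Within the genes, transcripts were tested next. Of the 28 kept transcripts 5 rose and 10 fell at an adjusted p under 0.05 (edgeR over 74843 transcripts), against 8.54% and 10.7% of all transcripts. The number that rose was 2 without control culture 1, irradiated culture 1 or irradiated culture 3, 3 with DESeq2 and 10 with library totals, and the number that fell was 6 without control culture 2 and 4 with library totals. The transcripts of a gene are not independent of each other, and some had nearly equal counts in every library. ENST00000330964 and ENST00000635699 of RPS27L differed by at most 4.27%, ENST00000455271 and ENST00000462430 of the same gene by at most 6.98%, and ENST00000295830 and ENST00000463836 of RPL22L1 by at most 3.92%. Whether a read was counted for more than 1 transcript is not known here.

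In RPS27L the main pair of transcripts did not pass. ENST00000330964, the principal coding transcript, was at 371.2 ± 51.0 CPM in control cultures and 347.3 ± 50.6 in irradiated cultures (SD, n = 3 each, log2 fold change −0.10, adjusted p = 0.742, edgeR), and ENST00000635699 was at 358.1 ± 49.8 and 333.7 ± 47.8 CPM (−0.10, adjusted p = 0.722). By contrast 3 minor coding transcripts rose, of which the last 2 given here are one of the nearly equal pairs. ENST00000411926, which starts 219 bases upstream of the principal transcript and has a coding sequence of 156 bases before the stop codon against 252, went from 21.61 ± 1.62 to 37.7 ± 0.863 CPM (log2 fold change 0.795 ± 0.170, edgeR adjusted p = 7.33e-05). ENST00000455271 went from 32.77 ± 1.87 to 46.3 ± 1.66 CPM (0.50, adjusted p = 0.0183, edgeR), and ENST00000462430 from 31.36 ± 1.68 to 44.28 ± 0.827 CPM (0.50, adjusted p = 0.0191, edgeR). The retained-intron transcript ENST00000482846 was at 81.76 ± 6.22 and 92.46 ± 5.04 CPM and did not pass (adjusted p = 0.486, edgeR).

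In RPL22L1 the 5 transcripts other than the retained-intron form fell, ENST00000475836, ENST00000295830, ENST00000463836 and ENST00000494771 by 0.937 to 0.977 on the log2 scale and ENST00000466674 by 0.53. The retained-intron transcript ENST00000478578 rose instead, from 13.49 ± 3.26 to 20.79 ± 2.61 CPM (log2 fold change 0.59 ± 0.18, edgeR adjusted p = 0.00918). In RPL26L1 the 4 transcripts that made up most of the gene, ENST00000265100, ENST00000521476, ENST00000519239 and ENST00000519974, had log2 fold changes of −0.65, −0.695, −0.62 and −0.60 and passed, and 2 rare ones did not. In RPL7L1 a retained-intron transcript, ENST00000397415, fell from 3.505 ± 1.02 to 1.557 ± 0.873 CPM (log2 fold change −1.18, adjusted p = 0.00601, edgeR), while the coding transcripts ENST00000493763 (−0.34, adjusted p = 0.136) and ENST00000304734 (0.04, adjusted p = 0.897) did not pass. In RPL39L ENST00000433055 was at 3.988 ± 0.31 and 7.067 ± 1.35 CPM, a rise of 0.80 (adjusted p = 0.0107, edgeR), and ENST00000296277 (−0.38, adjusted p = 0.128) did not pass.

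The isoform fraction is the share of a gene's counts held by a transcript. 3 member transcripts had a higher share at an adjusted p under 0.05 (edgeR's diffSpliceDGE), and 0 of 28 also reached the study's limit of a change of 0.1 in the fraction (dIF). Over the 74807 transcripts with a fraction in every library the first held for 3.53% and the second for 0.404%. ENST00000478578 of RPL22L1 took 1.128%, 1.107% and 1.916% of the gene in control cultures and 4.181%, 3.041% and 4.532% in irradiated cultures. The groups did not overlap, at a change of 2.53 percentage points (adjusted p = 2.64e-06, diffSpliceDGE). ENST00000411926 of RPS27L took 2.255%, 2.191% and 2.749% in control cultures and 4.703%, 3.614% and 4.209% in irradiated cultures, again without overlap (1.78 percentage points, adjusted p = 0.000327, diffSpliceDGE). The 2 main RPS27L transcripts each held a little less, 40.8% against 38.0% and 39.4% against 36.5% on average, and did not pass.

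RPL39L had the widest change in shares. ENST00000433055, whose first exon lies 41385 bases upstream of the start of ENST00000296277 and whose coding sequence is the same 153 bases before the stop codon, took 12.93%, 12.12% and 15.42% in control cultures and 25.42%, 22.94% and 21.46% in irradiated cultures (9.79 percentage points, adjusted p = 0.0451, diffSpliceDGE). The gain was just short of the limit on dIF. Both the share and the call depended on single libraries. Without control culture 3 the dIF was 0.108 with an adjusted p of 0.0457 (diffSpliceDGE), while without control culture 1 or 2 or irradiated culture 1, 2 or 3 the adjusted p was 0.159, 0.263, 0.267, 0.0873 and 0.117, and with the replicate block it was 0.0591. ENST00000296277 took 68.97%, 67.68% and 62.11% in control cultures and 45.76%, 51.95% and 52.68% in irradiated cultures. This change of −16.1 percentage points exceeded the limit on dIF, but its adjusted p was 0.263 with diffSpliceDGE and 0.00659 with limma's diffSplice. Since RPL39L held at most 236 counts in a library, these shares rest on few counts per transcript. In RPL7L1 ENST00000304734 took 35.5 ± 1.77% and 42.4 ± 1.25% and ENST00000493763 58.1 ± 0.898% and 53.3 ± 0.292% (SD, n = 3), neither of which passed, and in RPL26L1 the widest change was −0.716 percentage points.

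**Figure D5:**
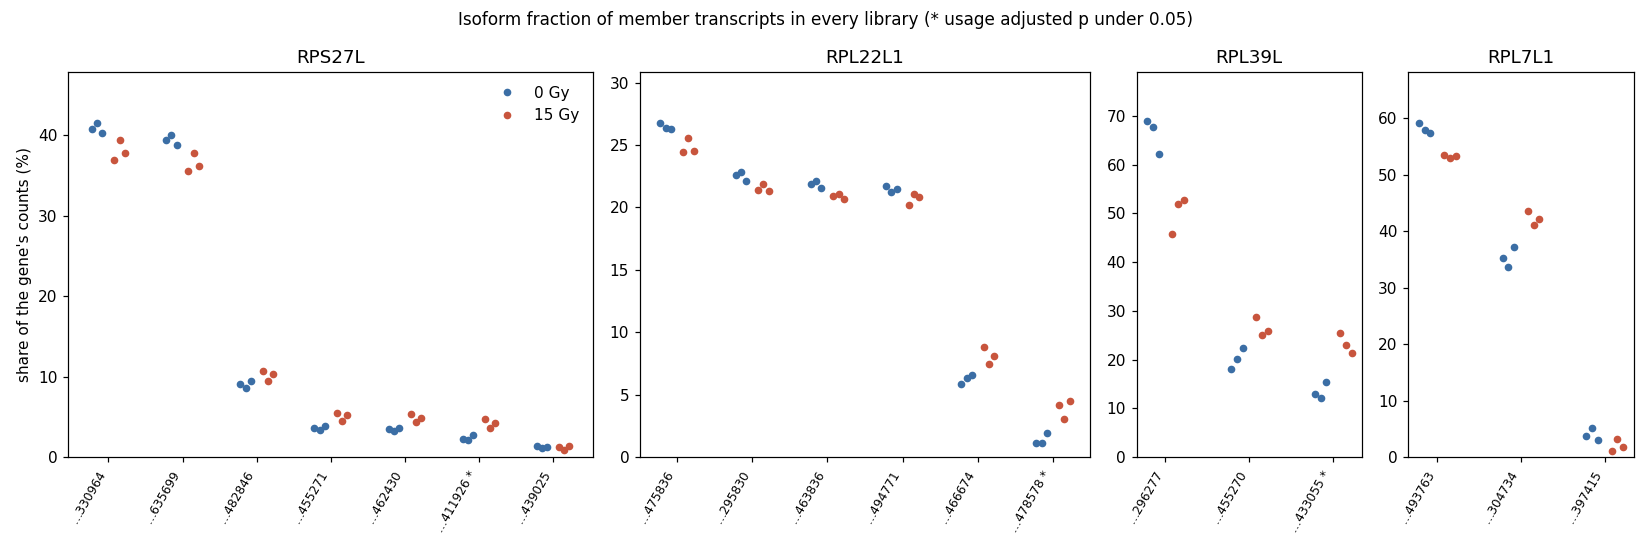
Share of a gene's counts (%, linear axes from 0) held by transcripts of RPS27L, RPL22L1, RPL39L and RPL7L1, with 1 point per library (transcript numbers shortened to their last 6 digits). The rarest RPL7L1 transcripts, 602561, 483998 and 497417, are not drawn. An asterisk marks a usage adjusted p under 0.05. Irradiated points lie above controls for 411926 of RPS27L (4.18% against 2.40%), 478578 of RPL22L1 (3.92% against 1.38%) and 433055 of RPL39L (23.3% against 13.5%).

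For each paralog the genes with the most similar pattern were sought among 6170 tested genes (6171 for RPL36AL) that averaged 10 CPM or more, by the root mean square difference of log2 CPM, each taken relative to its own control mean, over the 6 libraries. RPL22L1 was nearest to ATP5MC3 (0.0332), RPS29 (0.0381) and RPS15A (0.0439), the last 2 of them ribosomal protein genes. RPL26L1 was nearest to COX7A2 (0.0287), LSP1P5 (0.0414) and PWP1 (0.0414), and RPL36AL to LGALS1 (0.018), MICOS10 (0.021) and RBM8A (0.0276). RPL7L1 was nearest to C12orf75 (0.016), ATP6V0D1 (0.0278) and CDC42EP3 (0.0291). RPS27L was nearest to RNF41 (0.0636), CLP1 (0.0642) and MAGED2 (0.07), and RPL39L to ALKBH7 (0.0418), PPP2R1B (0.0473) and GDE1 (0.0512). The median over all genes compared ran from 0.356 for RPL7L1 to 0.632 for RPL22L1, and the nearest genes were chosen for their likeness.

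Library totals ran from 4870897 to 9082409 counts. The lowest total was that of control culture 1, and the precision of the lowly counted RPL39L and RPL7L1 is limited most. Of 13 microglial markers 7 were at 0 in every library, namely CX3CR1, P2RY12, TMEM119, ITGAM, C1QA, C1QB and TYROBP, and the list summed to 23.31 to 34.09 CPM in control cultures and 31.93 to 37.33 CPM in irradiated cultures, nearly all from CD68. Sums over lists were scaled with factors computed over all genes with a count, not only those tested, and so differ slightly in scale from the CPM of single genes. The 12 fibroblast and pericyte markers summed to 358.6 to 394 CPM and 346.4 to 423.4 CPM, with 4 of 8 tested called higher, such as ACTA2 (1.80) and COL1A2 (1.35 on the log2 scale), and 2 lower, such as THY1 (−0.625). COL3A1 and LUM were at 0. The part of these genes in the results was not tested.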

How the data were processed

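Per the labels, RNA of 3 control and 3 irradiated HMC3 cultures was sequenced with a cDNA-PCR kit that carries molecular identifiers, and no step that collapses reads by them is stated. The authors aligned reads to GRCh38 with minimap2 and deposited counts per transcript made with Salmon. The versions of minimap2 and Salmon, the annotation release behind the counts and their strand handling are not stated in the paper or labels.

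Genes were kept at summed counts of at least 10 in at least 3 libraries, transcripts at 3 counts in at least 1, and genes with at least 2 kept transcripts, which left 11118 genes and 74843 transcripts. Kept counts were summed per gene and tested with edgeR 4.0.16 (TMM, robust glmQLFit, glmQLFTest) in R 4.3.3, adjusted over all features. Standard errors were taken as |log2 fold change| over the square root of the F statistic. Usage was tested with diffSpliceDGE, with fractions from counts not divided by length. Ratios were tested with exact permutation. The script was tested on simulated data. DESeq2 1.42.0, limma 3.58.1, scipy 1.17.1 and pandas 2.3.3 served for alternatives, tests and tables. Totals ran from 4870897 to 9082409 counts per library.

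The members and all lists were chosen with earlier results of these data known. Named were all members and partners, the 3 genes of each list with the smallest adjusted p, the 3 genes nearest to each member in pattern, and the kept member transcripts by their mean usage of at least 5% or a call. Coding sequences came from GENCODE release 29, which holds a length for 70.2% of kept transcripts and 96.0% of kept genes, and gene starts from RefSeq.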

Additional observations from a re-analysis of the deposited data

How the results depend on the processing

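Calls of RPL22L1, RPL26L1 and RPL36AL as lower and of no paralog as higher held with RLE factors, DESeq2, no filter on low counts and each library left out. With library totals alone 2 of the 5 tested paralogs were higher and 1 lower, RPL7L1 turned to 0.289, 10 member transcripts were higher and 4 lower. With the length correction RPS27L was at −0.112, and with the limit on the fold change 0 paralogs were lower. DESeq2 called 3 member transcripts higher in place of 5. limma's diffSplice called 1 member transcript switched and 2 with lower usage in place of 0. With the most abundant transcript per gene, an alternative chosen after seeing the data, RPL39L was at −0.187, and the log2 ratio differences were 0.507 for RPS27L over RPS27, 0.227 for RPL26L1 over RPL26, 0.312 for RPL39L over RPL39, and 0.544, 0.475 and 0.288 for RPS27L over RPL26L1, RPL36AL and RPL39L. The cause was not tested. With 1 library left out in turn, RPS27L ranged from −0.0286 to 0.15, RPL39L from −0.0127 to 0.182, and the dIF of ENST00000265100 of RPL26L1 from −0.00504 to 0.00191. Member transcripts called higher numbered 2 to 5 (2 without control culture 1 or irradiated culture 1 or 3) and lower 6 to 13 (6 without control culture 2), those switched 0 to 1, with higher usage 2 to 5 (5 without control culture 3) and with lower usage 0 to 1. All ratios without overlap kept their direction under these omissions.

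Deviations of cultures of the same number hardly correlated across genes (r of −0.00085, 0.0915 and 0.0163), and cultures of different numbers gave r from −0.105 to 0.0938. Culture 2 was the highest in both groups for RPS27L, RPL22L1, RPL26L1, RPL36AL and RPL39L, but not for RPL7L1. With 3 cultures per group these values cannot tell whether the numbers pair samples. With the replicate block 0 of the 5 paralogs were called higher and 2 lower, 5 member transcripts were higher and 10 lower, and 4 had higher usage in place of 3 (ENST00000433055 of RPL39L lost its call, at an adjusted p of 0.0591, diffSpliceDGE), and 1549 genes were higher and 1682 lower. The log2 fold changes were 0.06 for RPS27L and −0.83 for RPL22L1. The length correction was not run on transcripts, because only 70.2% of them had a length. Depth limits RPL39L and RPL7L1, and counts may hold PCR copies.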
